A study of Mus musculus with 8 samples.

Results

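Chemokines are small secreted proteins that steer the movement of white blood cells, and their receptors are G-protein-coupled receptors on the cells that follow them. The genes described here are the chemokine ligands and receptors of mouse hepatoblast cultures. They were chosen by symbol, as every gene of the expression table named *Cxcl*, *Ccl* or *Cxcr* with a number, *Ccr* with a number, *Cx3cl1*, *Cx3cr1*, *Xcl1*, *Pf4* or *Ppbp*. This gave 58 of 23467 genes, of which 40 encode ligands and 18 encode receptors.

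Hepatoblasts, the fetal liver progenitors of hepatocytes and biliary epithelial cells (BECs), were taken from livers of B6;129 mixed mice at E14.5 and compared between control embryos, labelled wild type, and *Lats1/2*-deficient embryos of the genotype *Lats1*-/-; *Lats2* fl/fl; Alb-cre (L1L2_Alb). The LATS1/2 kinases restrain the co-activators YAP and TAZ in the Hippo pathway. Cells grown on collagen are called iHBs, cells given 12.5 ng/ml Oncostatin M for 5 days by the labels (6 days in the study's methods) are called iHPs, the hepatocyte arm, and cells kept 14 days on Matrigel are called iBECs, the biliary arm. RNA was sequenced in 8 libraries, with 1 control and 1 L1L2_Alb library of iHBs, 1 control and 2 L1L2_Alb libraries of iHPs, and 1 control and 2 L1L2_Alb libraries of iBECs. By the labelled genotype, *Lats1* would be missing from every cell of the mutants. The albumin promoter drives Cre, so that *Lats2* would be deleted in albumin-expressing cells, which blood cells, macrophages and mesothelium are not. The sources used here do not say whether paired libraries stem from separate embryos or cultures, so the spread between them may be technical. The p-values of genotype and stage rest on this spread together with any difference of the genotype effect between stages.

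The families are named by their conserved cysteines (CXC, CC, CX3C and C). CXC ligands such as CXCL1 and CXCL2 attract neutrophils through CXCR2, and CC ligands such as CCL2 and CCL12 attract monocytes through CCR2. In the liver, chemokines are made by hepatocytes, biliary cells, mesenchymal cells and resident macrophages, the Kupffer cells, and most of the receptors are carried by blood-derived cells.

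The libraries held from 18436865 reads (L1L2_Alb iHP replicate 1) to 33229075 reads (control iBEC). The unit is RPKM, which scales the reads of a gene to its length and to the depth of the library. Of the targeted genes, *Lats1* RNA ranged from 5.38 to 11.2 RPKM in control libraries and from 7.12 to 22.7 RPKM in libraries labelled L1L2_Alb, and *Lats2* RNA from 6.9 to 10.1 RPKM and from 10.9 to 27.6 RPKM. Neither RNA was lower over the stages together, and *Lats2* RNA was higher (log2 fold change 0.9, limma, adjusted p = 0.0312). A value per gene does not separate deleted from remaining exons, so genotypes are given as labelled. Of 5 YAP target genes, *Lats2* among them, 4 rose in these libraries. *Afp* was at 779 to 4220 RPKM and *Alb* at 524 to 6160 RPKM in the 8 libraries, both markers of hepatoblasts and hepatocytes, but *Krt7* and *Krt19* of the biliary list were lower in the iBEC control (62.3 and 83.7 RPKM) than in the iHB control (400 and 273 RPKM). Blood cells were present as well. The 13 macrophage and Kupffer cell markers summed to 2050 to 3272 RPKM in control libraries and to 1149 to 4924 RPKM in libraries labelled L1L2_Alb. The 9 neutrophil markers summed to 3294 to 14957 RPKM in controls and to 53.2 to 4846 RPKM in libraries labelled L1L2_Alb. The 8 lymphocyte markers summed to at most 6.77 RPKM, and *Cd3e*, which defines T cells, was at 0 everywhere. In a mixed culture, fewer cells of a type and less RNA per cell cannot be told apart.

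In these genes the 2 libraries of each L1L2_Alb pair differed. The same spread was not measured over all genes, so it cannot be called particular to chemokine genes. Over 36 chemokine genes that averaged 1 RPKM or more, the median difference between the 2 iHP libraries was 0.996 on the log2(RPKM + 1) scale, and 18 genes differed by more than 1. Between the libraries labelled L1L2_Alb iBEC it was 0.887, with 16 genes over 1. In replicate 2 of the iHPs, *Cxcl3* and *Cxcl13* were at 0 reads, and *Cxcl1* and *Cxcl2* at 10 reads each, so calls that change without this library are given with and without it. Without it the genotype estimates described below also moved from -0.45 to -0.19 for *Ccl2*, -0.51 to -0.24 for *Ccl4*, -0.31 to -0.07 for *Ccl5*, 0.65 to 0.33 for *Ccl24* and 0.72 to 1.27 for *Cxcl3* (log2 fold changes), and none of these genes passed either way.

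Promoters are shown for some of the ligands described below. They are the neutrophil-attracting trio *Cxcl1*, *Cxcl2* and *Cxcl3*, the lowered monocyte attractants *Ccl12* and *Ccl8*, and *Ccl17* of the raised ligands. Each sequence is the 250 bases before the gene start, on the gene's strand, from RefSeq on GRCm38.p6, a build other than the mm8 named in the submitters' processing notes. Capitals mark matches on either strand to the NF-kappaB site (the kappaB consensus), CATTCC (bound by TEAD, the DNA partner of YAP), TGANTCA (AP-1), TTCNNNGAA (STAT) or TATAAA (the TATA box), where N is any base, and in these 6 windows no match overlapped another.
Cxcl1 (chr5:90890995-90891244, plus strand): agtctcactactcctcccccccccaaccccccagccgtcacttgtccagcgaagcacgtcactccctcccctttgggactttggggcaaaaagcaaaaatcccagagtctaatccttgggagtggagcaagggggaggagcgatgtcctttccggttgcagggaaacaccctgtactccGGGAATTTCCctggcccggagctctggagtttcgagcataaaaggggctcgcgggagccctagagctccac
Cxcl2 (chr5:90903649-90903898, plus strand): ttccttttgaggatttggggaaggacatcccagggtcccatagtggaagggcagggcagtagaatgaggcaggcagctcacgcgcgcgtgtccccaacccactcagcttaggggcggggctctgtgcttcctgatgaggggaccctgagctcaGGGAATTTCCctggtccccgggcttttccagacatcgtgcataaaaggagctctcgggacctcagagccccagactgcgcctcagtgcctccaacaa
Cxcl3 (chr5:90785851-90786100, plus strand): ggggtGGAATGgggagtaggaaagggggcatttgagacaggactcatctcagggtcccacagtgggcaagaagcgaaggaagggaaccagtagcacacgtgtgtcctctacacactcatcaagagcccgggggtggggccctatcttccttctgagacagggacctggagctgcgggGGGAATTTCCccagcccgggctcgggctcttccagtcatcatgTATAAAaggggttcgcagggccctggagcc
Ccl12 (chr11:82101595-82101844, plus strand): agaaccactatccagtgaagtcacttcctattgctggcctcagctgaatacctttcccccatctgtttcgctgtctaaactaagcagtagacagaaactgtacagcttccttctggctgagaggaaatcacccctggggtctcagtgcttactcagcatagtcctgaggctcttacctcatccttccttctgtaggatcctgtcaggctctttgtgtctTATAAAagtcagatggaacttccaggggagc
Ccl8 (chr11:82114935-82115184, plus strand): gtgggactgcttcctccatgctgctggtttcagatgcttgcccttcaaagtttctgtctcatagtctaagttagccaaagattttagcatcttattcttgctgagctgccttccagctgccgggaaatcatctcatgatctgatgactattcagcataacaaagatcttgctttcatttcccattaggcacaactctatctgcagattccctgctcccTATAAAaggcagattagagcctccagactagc
Ccl17 (chr8:94810203-94810452, plus strand): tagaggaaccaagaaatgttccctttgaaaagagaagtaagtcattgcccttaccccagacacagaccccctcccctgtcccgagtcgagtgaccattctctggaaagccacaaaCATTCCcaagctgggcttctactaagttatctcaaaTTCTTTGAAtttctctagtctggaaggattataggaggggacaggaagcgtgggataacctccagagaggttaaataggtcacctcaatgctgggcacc

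The same kappaB match stood in *Cxcl1* with its first base at -71 from the gene start, in *Cxcl2* at -97 and in *Cxcl3* at -73. *Cxcl3* also held CATTCC on the opposite strand at -245 and TATAAA at -30. *Ccl12* and *Ccl8* held TATAAA at -31 and -32 and none of the other motifs. *Ccl17* held CATTCC at -135 and TTCNNNGAA at -99. The windows of *Ccl25* and *Cxcl14*, which also rose, are not printed and held no CATTCC. *Cxcl14* held TTCNNNGAA at -191, and 1 of 2 *Ccl25* windows held TATAAA at -16. RefSeq windows were matched for 42 of the 58 genes, 49 windows in all, and the same search ran over 32851 windows of all genes. The kappaB consensus was in 18.4% of chemokine windows and 5% of all windows, TGANTCA in 14.3% and 6.75%, TATAAA in 24.5% and 12.4%, CATTCC in 14.3% and 12.6%, and TTCNNNGAA in 6.12% and 7.02%. A match describes letters and is no measured site.

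Chemokine RNA was found in all 3 stages. The 58 genes summed to 779 RPKM in the iHB control, 630 RPKM in the iHP control and 424 RPKM in the iBEC control, against 912 RPKM in the iHB library labelled L1L2_Alb, 415 and 442 RPKM in those labelled L1L2_Alb iHP and 407 and 825 RPKM in those labelled L1L2_Alb iBEC. *Ccl6*, *Pf4* and *Ccl17* exceeded 100 RPKM in at least 1 library, and 26 genes exceeded 10 RPKM. By mean RPKM over the libraries, a level per gene length, the order was *Ccl6* (108 RPKM), *Pf4* (78.1 RPKM), *Ccl2* (40.4 RPKM), *Ccl9* (35.2 RPKM), *Cxcl17* (33.4 RPKM), *Ccl17* (32.9 RPKM), *Cxcl1* (26.6 RPKM) and *Cxcl13* (25.7 RPKM), and the ranges of neighbours in this order overlapped. Among receptors the order was *Ccr1* (16.7 RPKM), *Cxcr4* (9.58 RPKM), *Cxcr2* (6.59 RPKM), *Cx3cr1* (5.68 RPKM) and *Ccr2* (3.7 RPKM), again with overlapping ranges.

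**Figure D1:**
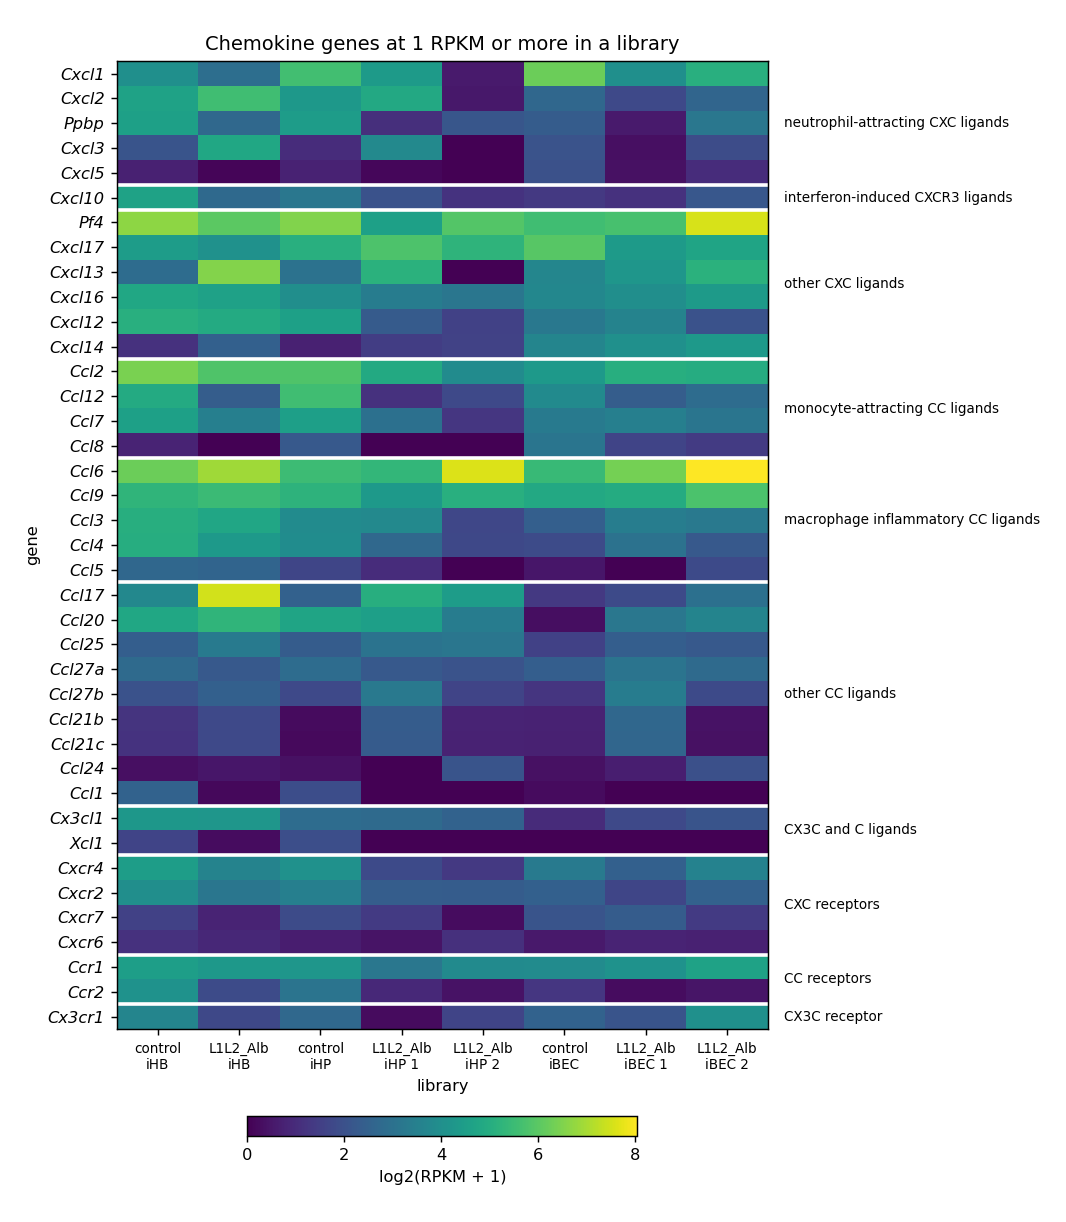
Heat map of chemokine genes that reached 1 RPKM in any of the 8 libraries (columns), grouped by role, with colour giving log2(RPKM + 1) from 0 to 8. *Ccl6* and *Pf4* are bright in every column, while *Cxcl1*, *Cxcl2*, *Cxcl3* and *Cxcl13* are dark in L1L2_Alb iHP 2.

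The first question was which chemokine genes changed with loss of *Lats1/2*, taken over the 3 stages since each stage had 1 control library. Genotype was fitted with stage as a block on log2(RPKM + 1) by limma, with p-values adjusted by the Benjamini-Hochberg method over the 13421 genes that averaged 1 RPKM or more, and fold changes of low genes are understated on this scale. Errors of log2 fold changes (±) are standard errors of the fit, and they also hold any difference of the genotype effect between stages. Of 36 chemokine genes tested 6 passed an adjusted p of 0.05, which is 16.7% beside 9.57% of all genes tested. The 3 that rose were *Ccl17*, *Ccl25* and *Cxcl14* (6.2% of all genes rose), and the 3 that fell were *Ccl12*, *Ccl8* and *Ccr2* (3.37% of all genes fell). At an unadjusted p of 0.05, 11 chemokine genes passed, 30.6% beside 26.3% of all genes, so the list as a whole lay near the background by that count. The median log2 fold change was -0.28 for the chemokine genes and 0.06 for all genes tested, and 23 of 36 estimates were negative. In the separate libraries the median difference from the control of the same stage was -0.25 in iHB, -0.64 and -1.12 in iHPs, and 0.24 and 0.64 in iBECs, beside -0.09, 0.01, -0.03, 0.22 and 0.26 for all genes. All 5 libraries labelled L1L2_Alb were lower than their control for 4 chemokine genes (11.1%, beside 10.1% of all genes) and higher for 3 (8.33%, beside 22.9% of all genes).

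**Figure D2:**
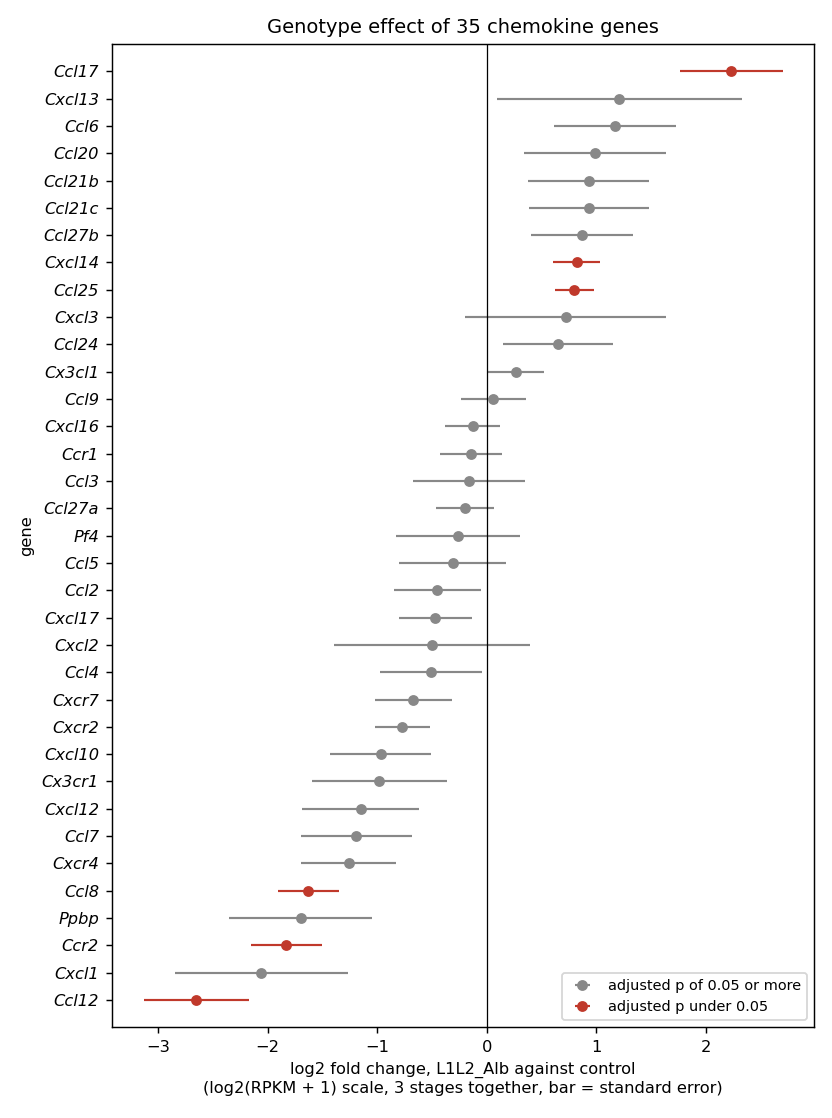
Genotype effect of 35 of the 36 chemokine genes tested, as the log2 fold change of libraries labelled L1L2_Alb against control over the 3 stages (points) with its standard error (bars). *Ccl17*, *Ccl25* and *Cxcl14* on the right and *Ccl12*, *Ccl8* and *Ccr2* on the left have an adjusted p under 0.05 (red).

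Of 4 monocyte-attracting CC ligands, *Ccl12* and *Ccl8* fell, as did *Ccr2* of the receptors, while *Ccl2* and *Ccl7* did not pass. *Ccl12*, which encodes a CCR2 ligand of mice, was at 29.6 RPKM in the iHB control and 4.16 RPKM in the iHB library labelled L1L2_Alb, at 47.5 RPKM in the iHP control and 1.21 and 2.45 RPKM in those labelled L1L2_Alb iHP, and at 13.5 RPKM in the iBEC control and 4.18 and 6.26 RPKM in those labelled L1L2_Alb iBEC. Every control exceeded every library labelled L1L2_Alb. Its log2 fold change was -2.65 ± 0.482 (limma, adjusted p = 0.0148, lower in 5 of 5 libraries), and it was lower by 7.1-fold in iHB, 39.1-fold and 19.4-fold in iHPs and 3.24-fold and 2.16-fold in iBECs.

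*Ccl8* encodes a further monocyte attractant. It was at 0.756 RPKM (11 reads) in the iHB control, 3.78 RPKM (54 reads) in the iHP control and 7.83 RPKM (133 reads) in the iBEC control. No read was found in the libraries labelled L1L2_Alb iHB and iHP, and those labelled L1L2_Alb iBEC held 2.12 and 1.64 RPKM. With 3 reads per library as the limit that a count of 0 allows, it was at least 3.7-fold lower in iHB and at least 11.9-fold and 13.7-fold lower in iHPs, and it was 3.7-fold and 4.77-fold lower in iBECs. The fit gave a log2 fold change of -1.63 ± 0.279 (limma, adjusted p = 0.0118, lower in 5 of 5).

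*Ccr2* encodes the receptor by which monocytes follow CCL2, CCL7, CCL8 and CCL12. In controls it was at 16.2 RPKM in iHB, 7.56 RPKM in iHP and 1.44 RPKM in iBEC. Its level in libraries labelled L1L2_Alb was 2.56 RPKM in iHB, 0.922 and 0.327 RPKM in iHPs and 0.215 and 0.386 RPKM in iBECs. It was lower by 6.32-fold in iHB, 8.21-fold and 23.1-fold in iHPs and 6.7-fold and 3.74-fold in iBECs, with a log2 fold change of -1.83 ± 0.323 (limma, adjusted p = 0.0132, lower in 5 of 5). The ranges of the genotypes overlapped across stages and were apart within each stage. Leaving out the iHP stage ended all 3 calls, with adjusted p of 0.0858 for *Ccl12*, 0.117 for *Ccl8* and 0.128 for *Ccr2*, leaving out the iHB stage ended those of *Ccl12* (0.0741) and *Ccr2* (0.0867), and with no filter on low values *Ccl12* was at 0.055. No call of the 3 was lost when any one of the 4 libraries of the pairs was left out.

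*Ccl2* encodes the main monocyte attractant, and its level was 85.2 RPKM in the iHB control against 56.3 RPKM, 56.5 RPKM in the iHP control against 28.9 and 13.6 RPKM, and 19.6 RPKM in the iBEC control against 32.4 and 30.8 RPKM in the libraries labelled L1L2_Alb. It was lower than control in iHB and iHPs and higher in both iBEC libraries, and the common log2 fold change was -0.45 (limma, adjusted p = 0.529). *Ccl7*, a further CCR2 ligand gene, was at 22.7, 22.6 and 9 RPKM in the iHB, iHP and iBEC controls. The libraries labelled L1L2_Alb held 10.1 RPKM in iHB, 6.86 and 1.41 RPKM in iHPs and 10.1 and 7.77 RPKM in iBECs (log2 fold change -1.19, limma, adjusted p = 0.178). The macrophage markers had 0 of 12 tested genes past the threshold (1 at an unadjusted p of 0.05) with a median log2 fold change of 0.2, and the 7 leukocyte markers 0 of 7 (2 unadjusted) with -0.37. Some other lists had lower medians. The 9 neutrophil markers had a median of -3.38 with 0 past the threshold (8 unadjusted). The 10 mesenchyme markers had a median of -1.02 with *Vim* higher, none lower past the threshold, and 7 at an unadjusted p of 0.05. *Ccl12*, *Ccl8* and *Ccr2* were lower in every library labelled L1L2_Alb. The mesenchyme sum was above control in iBEC replicate 1 only (4637 against 3169 RPKM). In iBEC replicate 2, *Camp*, *Ngp*, *Ltf* and *Retnlg* were above control and the other neutrophil markers below it. The part of these cells in the fall of *Ccl12*, *Ccl8* and *Ccr2* was not tested.

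*Ccl17*, *Ccl25* and *Cxcl14* rose in the libraries labelled L1L2_Alb. CCL17 attracts T helper and regulatory T cells through CCR4. *Ccl17* was at 12.6 RPKM in the iHB control and 182 RPKM in the iHB library labelled L1L2_Alb, at 4.66 RPKM in the iHP control and 32.3 and 20.8 RPKM in those labelled L1L2_Alb iHP, and at 1.52 RPKM in the iBEC control and 2.48 and 6.85 RPKM in those labelled L1L2_Alb iBEC. The gain was 14.5-fold in iHB, 6.93-fold and 4.47-fold in iHPs and 1.63-fold and 4.5-fold in iBECs, with a log2 fold change of 2.23 ± 0.469 (limma, adjusted p = 0.0253, higher in 5 of 5). Within each stage the genotypes were apart, and across stages they overlapped. Its adjusted p rose to 0.0589 without L1L2_Alb iHP replicate 1, 0.0591 without L1L2_Alb iBEC replicate 2, 0.0758 with no filter on low values, 0.107 without iHBs and 0.182 without iHPs. *Cx3cl1* and *Ccl22*, which lie next to it on chromosome 8 (gene windows at chr8:94771930-94772179 and chr8:94745434-94745683), did not follow. *Ccl22*, the other CCR4 ligand gene, was at most at 0.291 RPKM, and *Cx3cl1* had a log2 fold change of 0.27 (limma, adjusted p = 0.558). *Ccr4* was at most at 0.0389 RPKM.

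CCL25 draws CCR9-bearing lymphocytes. *Ccl25* was at 4.32 RPKM in the iHB control against 8.82 RPKM, 4.1 RPKM in the iHP control against 7.32 and 7.97 RPKM, and 1.97 RPKM in the iBEC control against 4.35 and 3.78 RPKM in the libraries labelled L1L2_Alb. The gain lay between 1.79-fold and 2.21-fold in all 5 libraries (log2 fold change 0.8 ± 0.178, limma, adjusted p = 0.0304). *Ccr9*, its receptor, was at most at 0.117 RPKM. *Cxcl14*, an epithelial chemokine, was at 1.23 RPKM in the iHB control against 4.48 RPKM, 0.665 RPKM in the iHP control against 1.75 and 1.98 RPKM, and 11.8 RPKM in the iBEC control against 15.5 and 19.2 RPKM. Its log2 fold change was 0.82 ± 0.214 (limma, adjusted p = 0.0487, higher in 5 of 5). Under 14 alternatives the call of *Ccl17* held in 9, that of *Ccl25* in 5 and that of *Cxcl14* in 2, with adjusted p up to 0.159 for *Ccl25* and 0.215 for *Cxcl14*. Leaving out 1 library ended the call of *Ccl25* without L1L2_Alb iHP replicate 1 and without either L1L2_Alb iBEC library (adjusted p from 0.0547 to 0.0667 in limma), and that of *Cxcl14* without any 1 of the 4 paired libraries (0.0553 to 0.111). The mesothelium marker sum, most of which is *Msln*, was 111 to 272 RPKM in controls and 1064 to 3613 RPKM in libraries labelled L1L2_Alb. *Msln* and *Upk1b* of 4 tested markers rose. *Wt1* was higher in 5 of 5 libraries without passing, *Upk3b* was higher in 3 and lower in 2, and *Gpm6a* was at most at 0.154 RPKM. Across stages the sum was lowest in the iBEC control (111 RPKM), where *Cxcl14* was at 11.8 RPKM. It was highest in the iHB library labelled L1L2_Alb (3613 RPKM), where *Cxcl14* was at 4.48 RPKM. The part of mesothelial cells in the rise of *Ccl17*, *Ccl25* and *Cxcl14* was not tested.

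**Figure D3:**
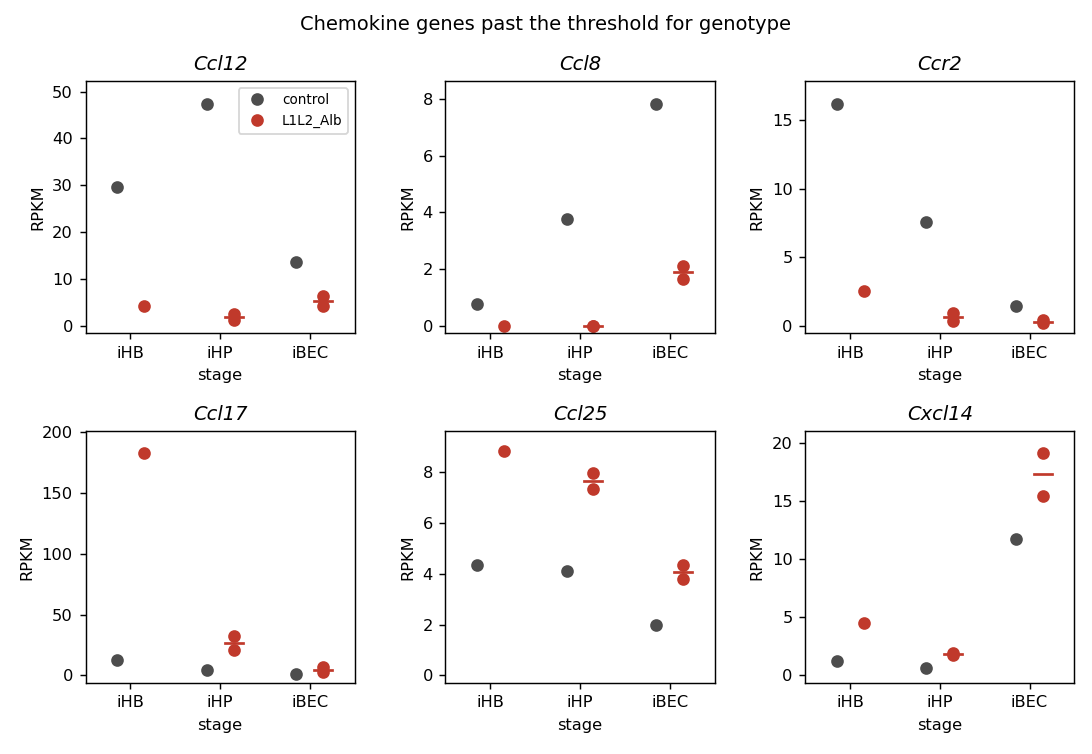
RPKM of the 6 chemokine genes past the threshold for genotype, by stage, in control (grey) and L1L2_Alb (red) libraries, with 1 point per library and a bar at the mean of 2 libraries. Within every stage the L1L2_Alb points of *Ccl12*, *Ccl8* and *Ccr2* lie below the control point, and those of *Ccl17*, *Ccl25* and *Cxcl14* above it.

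The neutrophil-attracting CXC ligands had no call among 4 genes tested in limma (2 at an unadjusted p of 0.05), and their levels differed widely between the libraries of a pair. *Cxcl1* was at 15.2 RPKM in the iHB control and 6.54 RPKM in the iHB library labelled L1L2_Alb, at 47.8 RPKM in the iHP control against 19.8 and 0.495 RPKM, and at 75.1 RPKM in the iBEC control against 15.1 and 32.8 RPKM. All 5 libraries labelled L1L2_Alb were lower than their control, by 2.29-fold to 96.8-fold. The log2 fold change was -2.06 ± 0.789 (limma, adjusted p = 0.142), and without L1L2_Alb iHP replicate 2 it was -1.38 with an adjusted p of 0.0329.

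*Cxcl2* and *Cxcl3*, neighbours of *Cxcl1* on chromosome 5 with the same kappaB match, went another way in iHBs. *Cxcl2* was at 23.7 RPKM in the iHB control and 46.5 RPKM in the iHB library labelled L1L2_Alb, at 18.7 RPKM in the iHP control against 28.2 and 0.433 RPKM, and at 5.42 RPKM in the iBEC control against 2.46 and 5.15 RPKM. *Cxcl3* was at 3.24 RPKM against 26.6 RPKM in iHBs, at 1.02 RPKM against 12.9 and 0 RPKM in iHPs, and at 3.13 RPKM against 0.266 and 2.64 RPKM in iBECs. Both genes were higher than control in the iHB library labelled L1L2_Alb and in iHP replicate 1, and lower in iHP replicate 2 and both iBEC libraries. The common log2 fold change was -0.5 for *Cxcl2* (limma, adjusted p = 0.776) and 0.72 for *Cxcl3* (adjusted p = 0.682), and that of *Cxcl2* was 0.26 without iHP replicate 2.

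*Ppbp*, a platelet chemokine gene beside *Pf4*, was at 22.7 RPKM against 5.61 RPKM in iHBs, 21 RPKM against 1.1 and 3.43 RPKM in iHPs, and 4.07 RPKM against 0.501 and 8.23 RPKM in iBECs. It was lower in 4 of 5 libraries labelled L1L2_Alb (log2 fold change -1.7, limma, adjusted p = 0.141), and passed without L1L2_Alb iBEC replicate 2 (adjusted p = 0.0208). Of 4 tested platelet and megakaryocyte markers 0 passed in limma (1 at an unadjusted p of 0.05). *Gp9* was lower in 4 of 5 libraries labelled L1L2_Alb, *Itga2b* and *Gp1bb* were lower in 3 and higher in both iBEC libraries, and *Itgb3* was higher in 5 of 5. The 7 markers summed to 61.6 RPKM against 28.1 RPKM in iHBs, 56.6 RPKM against 34.2 and 80.9 RPKM in iHPs and 9.1 RPKM against 14.5 and 16.9 RPKM in iBECs, and their part in the level of *Ppbp* was not tested. *Pf4*, the other platelet chemokine, was also lower than control in iHB and both iHPs labelled L1L2_Alb, by less than *Ppbp*. Like *Ppbp* it was higher in iBEC replicate 2, and only in iBEC replicate 1 did the direction differ. *Pf4* was at 102 RPKM against 63.8 RPKM in iHBs and 91.1 RPKM against 23.1 and 58.3 RPKM in iHPs. In iBECs it was at 46.6 RPKM against 51.3 and 188 RPKM (log2 fold change over the stages -0.26, limma, adjusted p = 0.817). *Cxcl5* had a mean under 1 RPKM and was highest in the iBEC control, at 2.96 RPKM.

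*Cxcl13* encodes a B cell attractant. It was at 6.17 RPKM in the iHB control and 93.5 RPKM in the iHB library labelled L1L2_Alb, at 7.26 RPKM in the iHP control against 34.5 and 0 RPKM, and at 11.9 RPKM in the iBEC control against 17.6 and 34.4 RPKM. It was higher in 4 of 5 libraries, by 1.48-fold to 15.2-fold, and at least 59.9-fold lower in iHP replicate 2. The log2 fold change was 1.21 ± 1.12 (limma, adjusted p = 0.555), and without that library it was 2.15 with an adjusted p of 0.0473. In the same library the neutrophil marker sum was 53.2 RPKM against 476 RPKM in replicate 1 and 10167 RPKM in the iHP control. The macrophage marker sum there was 2025 RPKM against 1149 RPKM in replicate 1 and 2138 RPKM in the iHP control. The part of other cells in the near absence of these ligands was not tested.

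**Figure D4:**
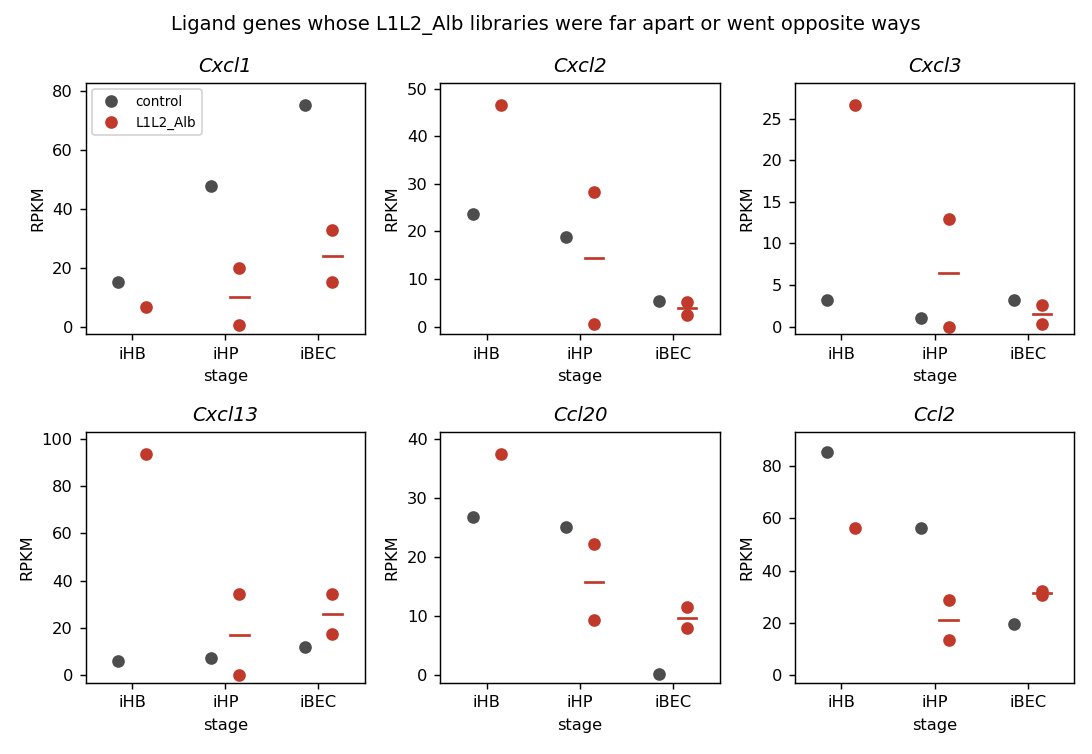
RPKM of *Cxcl1*, *Cxcl2*, *Cxcl3*, *Cxcl13*, *Ccl20* and *Ccl2* by stage in control (grey) and L1L2_Alb (red) libraries, with 1 point per library and a bar at the mean of 2 libraries. The lower L1L2_Alb iHP point of the first 4 genes lies at or near 0, and *Ccl20* in iBECs is near 0 for the control but at 8.08 and 11.5 RPKM for the L1L2_Alb libraries.

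Of the other CXC ligands, *Cxcl12* encodes the ligand of CXCR4 that keeps blood progenitors in their niche. It was at 33 RPKM against 29.6 RPKM in iHBs, 23.1 RPKM against 3.95 and 1.96 RPKM in iHPs and 8.25 RPKM against 11.2 and 3.05 RPKM in iBECs, control first. The L1L2_Alb iHP libraries were 5.84-fold and 11.8-fold below their control, whereas the iBEC libraries went opposite ways (log2 fold change -1.15, limma, adjusted p = 0.219). *Cxcl10*, an interferon-induced ligand of CXCR3, was at 24.1 RPKM against 5.77 RPKM in iHBs, 8.25 RPKM against 3.11 and 1.28 RPKM in iHPs and 1.5 RPKM against 1.23 and 3.58 RPKM in iBECs (log2 fold change -0.97, adjusted p = 0.232). *Cxcl16*, a membrane-bound ligand of CXCR6, stayed between 8.03 and 26.7 RPKM in the 8 libraries (log2 fold change -0.13, adjusted p = 0.786). *Cxcl17*, a mucosal chemokine, was at 21 RPKM against 16 RPKM in iHBs and 32.9 RPKM against 54.6 and 36.4 RPKM in iHPs. In iBECs it was at 61.9 RPKM against 19.8 and 24.9 RPKM (log2 fold change over the stages -0.47, limma, adjusted p = 0.428).

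The macrophage inflammatory CC ligands had no call among 5 genes tested for genotype (0 at an unadjusted p of 0.05 in limma). *Ccl6* had the highest mean of the chemokine RNAs. It was at 74.3 RPKM against 118 RPKM in iHBs, 45.2 RPKM against 39.2 and 195 RPKM in iHPs and 42.5 RPKM against 81.9 and 265 RPKM in iBECs. *Pf4* was above *Ccl6* in every control (102, 91.1 and 46.6 RPKM), and *Ccl17* in the iHB library labelled L1L2_Alb (182 RPKM). *Ccl6* was higher in 4 of 5 libraries labelled L1L2_Alb, most in replicate 2 of each pair (log2 fold change 1.17, adjusted p = 0.235). *Ccl9* varied little, from 19.2 to 54.2 RPKM (log2 fold change 0.06, adjusted p = 0.921), and the sign of this estimate turned with scaling between libraries. *Ccl3* and *Ccl4*, which encode attractants of macrophages and T cells, ranged from 2.26 to 31.8 RPKM and from 2.35 to 31.5 RPKM, and their estimates were -0.16 (adjusted p = 0.88) and -0.51 (adjusted p = 0.549). *Ccl5* reached 5.49 RPKM in the iHB control and was at 0 in L1L2_Alb iHP replicate 2 and L1L2_Alb iBEC replicate 1 (log2 fold change -0.31, limma, adjusted p = 0.748).

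*Ccl20* attracts CCR6-bearing lymphocytes and dendritic cells. It was at 26.8 RPKM against 37.5 RPKM in iHBs and 25.2 RPKM against 22.4 and 9.32 RPKM in iHPs. In control iBEC it was at 0.226 RPKM (12 reads), against 8.08 and 11.5 RPKM in those labelled L1L2_Alb iBEC, a 35.8-fold and 51.1-fold gain over a single low control library. The common log2 fold change was 0.99 (limma, adjusted p = 0.384). *Ccl24*, an eosinophil attractant, was at most at 0.28 RPKM in controls and at 3.28 and 2.93 RPKM in replicate 2 of L1L2_Alb iHP and iBEC (log2 fold change 0.65, adjusted p = 0.466). *Ccl27a* and *Ccl27b*, near-identical copies that can share reads, ranged from 3.19 to 7.52 RPKM and from 1.36 to 9.49 RPKM, and *Ccl21b* and *Ccl21c*, also near-identical copies, reached 5.5 and 5.29 RPKM. None of these copies passed the test, and how reads were split between them is not given in the sources used here. *Cx3cl1*, which encodes the membrane-bound fractalkine, was at 18.1 RPKM against 17.7 RPKM in iHBs, 6.13 RPKM against 5.88 and 4.84 RPKM in iHPs and 0.996 RPKM against 2.45 and 3.24 RPKM in iBECs.

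Beside *Ccr2*, no other of the 7 receptors tested passed for genotype. *Cxcr2* passed without L1L2_Alb iBEC replicate 2 (limma, adjusted p = 0.049), and *Cxcr4* (0.0422) and *Cx3cr1* (0.0437) passed without the iBEC stage. *Cxcr4*, the receptor of CXCL12, was at 21.2 RPKM against 11.1 RPKM in iHBs, 16 RPKM against 2.51 and 1.53 RPKM in iHPs and 8.93 RPKM against 4.54 and 10.8 RPKM in iBECs. It was lower in 4 of 5 libraries (log2 fold change -1.26, limma, adjusted p = 0.109). *Cxcr2*, the neutrophil receptor of CXCL1 to CXCL3, was at 15 RPKM against 7.98 RPKM in iHBs, 10.2 RPKM against 4.17 and 4.06 RPKM in iHPs and 4.53 RPKM against 2.2 and 4.66 RPKM in iBECs (log2 fold change -0.77, adjusted p = 0.0935). *Cx3cr1*, the fractalkine receptor of monocytes, was at 11.7 RPKM against 2.37 RPKM in iHBs, 5.65 RPKM against 0.173 and 2.13 RPKM in iHPs and 4.77 RPKM against 3.27 and 15.3 RPKM in iBECs (log2 fold change -0.98, adjusted p = 0.363). These receptor RNAs were highest in a control library, apart from *Cx3cr1* in L1L2_Alb iBEC replicate 2. *Ccr1* stayed between 8.12 and 23.9 RPKM (log2 fold change -0.14, adjusted p = 0.81). *Cxcr7*, a scavenger of CXCL12, ranged from 0.204 to 4.05 RPKM (log2 fold change -0.67, adjusted p = 0.275).

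By sum, the 7 CXC receptors were at 39.4, 29.6 and 17.2 RPKM in the iHB, iHP and iBEC controls. In the libraries labelled L1L2_Alb they were at 20.8 RPKM in iHB, 8.76 and 7.06 RPKM in iHPs and 11.7 and 18 RPKM in iBECs. The 10 CC receptors were at 48.1, 30.7 and 16.8 RPKM in controls, against 23.9 RPKM, 10.3 and 16.8 RPKM, and 17.8 and 30.7 RPKM. Both sums were lower than control in iHB and iHPs labelled L1L2_Alb. In iBECs the CXC sum was lower in replicate 1 only, and the CC sum was lower in neither replicate. The leukocyte marker sum moved with both sums in iHPs, with 912 RPKM for the control against 268 and 414 RPKM. It was 1452 RPKM against 1047 RPKM in iHBs and 698 RPKM against 954 and 1014 RPKM in iBECs. The neutrophil marker sum was lower than control in all 5 libraries, at 14957 RPKM against 4846 RPKM in iHBs, 10167 RPKM against 476 and 53.2 RPKM in iHPs and 3294 RPKM against 119 and 2678 RPKM in iBECs, with a median log2 fold change of -3.38 and 0 of 9 markers past the threshold in limma (8 at an unadjusted p of 0.05). Their part in the levels of the receptors was not tested.

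**Figure D5:**
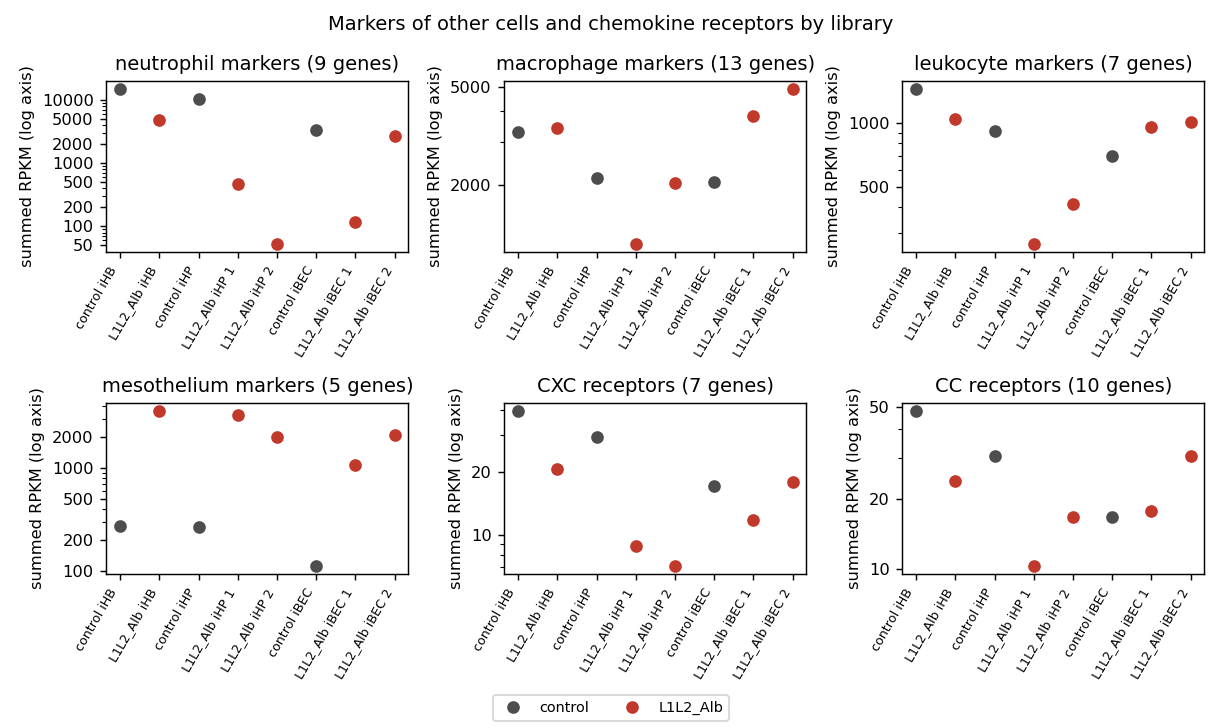
Summed RPKM, on log axes, of neutrophil, macrophage, leukocyte and mesothelium markers and of the CXC and CC receptors in each of the 8 libraries (grey, control; red, L1L2_Alb). The mesothelium sum, most of which is *Msln*, is higher in every L1L2_Alb library than in all controls. Neutrophil markers fall to 53.2 RPKM in L1L2_Alb iHP 2, and CXC receptors are lowest in the L1L2_Alb iHP libraries.

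The second question was how chemokine genes differed between stages, adjusted for genotype. In iHPs against iHBs, 0 of 36 chemokine genes and 0.0% of all genes passed in limma. At an unadjusted p of 0.05, 13 chemokine genes passed, 36.1% beside 8.63% of all genes. Of 36 estimates 31 were negative, with a median of -0.76. Most estimates of all genes were negative too, with a median of -0.15. Blood cell markers were lower as well, with a median of -1.32 for 7 leukocyte markers (7 at an unadjusted p of 0.05), -1 for 12 macrophage markers (5 unadjusted) and -3.16 for 9 neutrophil markers (3 unadjusted), and 0 of each list past the threshold in limma. The lowest adjusted p was 0.298, for *Cx3cl1* (log2 fold change -1.56). In iBECs against iHBs, 5 of 36 passed, 13.9% beside 5.72% of all genes. *Ccl17*, *Ccr2* and *Cx3cl1* were lower (2.78% of all genes were lower) and *Ccl8* and *Cxcl14* higher (2.94% of all genes were higher). At an unadjusted p of 0.05, 15 passed, 41.7% beside 25% of all genes. Here 28 of 36 estimates were negative, with a median of -0.6, and most estimates of all genes were negative too, with a median of -0.25. The marker medians were -0.51 for leukocytes, 0.23 for macrophages and -2.76 for neutrophils in iBECs against iHBs, with 0 past the threshold in limma (1, 4 and 0 at an unadjusted p of 0.05). The part of these cells in the stage differences was not tested. Both comparisons share the iHB libraries. Scaling by the upper quartile moved the median of all genes from -0.253 to -0.016 in iBECs against iHBs and from -0.145 to 0.009 in iHPs against iHBs, and the chemokine medians to -0.342 and -0.604.

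In iBECs, *Cx3cl1* was lower, with a log2 fold change of -2.66 ± 0.319 (limma, adjusted p = 0.00342), with 18.1 and 17.7 RPKM in iHBs against 0.996, 2.45 and 3.24 RPKM. *Ccl17* was lower by -3.98 ± 0.585 (adjusted p = 0.00749), from 12.6 and 182 RPKM to 1.52, 2.48 and 6.85 RPKM. The fall of *Ccr2* was -1.98 ± 0.403 (adjusted p = 0.0283), from 16.2 and 2.56 RPKM to 1.44, 0.215 and 0.386 RPKM. *Cxcl14* was higher by 2.08 ± 0.266 (adjusted p = 0.00459), with 1.23 and 4.48 RPKM in iHBs and 11.8, 15.5 and 19.2 RPKM in iBECs. *Ccl8* was higher by 1.93 ± 0.348 (adjusted p = 0.0181), from 0.756 and 0 RPKM to 7.83, 2.12 and 1.64 RPKM. The iHB and iBEC libraries did not overlap in any of the 5 genes. These genes were picked by the test on the same libraries, so this is no further support. *Ccl17*, *Cx3cl1* and *Cxcl14* passed under all 12 alternatives, while *Ccl8* had an adjusted p of 0.0544 with the libraries of a pair averaged and *Ccr2* was at 0.0703 with no filter on low values, 0.0534 without L1L2_Alb iHP replicate 1 and 0.05, just over the threshold, with pairs averaged. Without L1L2_Alb iHP replicate 2, 12 of 36 chemokine genes passed, beside 1739 of 13421 genes (13%). They were the 5 named and *Ccl3*, *Ccl4*, *Ccl20*, *Ccl25*, *Cxcl1*, *Cxcl2* and *Cxcr2*. Without L1L2_Alb iBEC replicate 2, 8 of 36 passed, beside 488 of 13421 genes (3.64%).

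The third question was whether the genotype effect differed between stages. No chemokine gene and 0.0% of all genes passed the moderated F test of limma on the 6 conditions, which has 2 residual degrees of freedom. At an unadjusted p of 0.05, 7 of 36 chemokine genes (19.4%) and 733 of 13421 genes (5.46%) passed. The lowest adjusted p was 0.46, for *Ccl20*, whose effect was -0.76 in iHPs and 3.12 in iBECs. For 30 of the 36 genes the effect was higher in iBECs than in iHPs, with a median difference of 1.21. The median of all genes was 0.24, so the effect was higher in iBECs for most genes tested as well.

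Genes that act with chemokines were described by counts, and no count is read as a finding about its list. Of all genes tested, 9.57% passed for genotype and 5.72% in iBECs against iHBs. Of 24 tested NF-kappaB subunits, feedback genes and targets, *Ptgs2* and *Tnfaip3* rose and *Lcn2* fell with genotype, and *Ptgs2*, *Tnfaip3* and *Il1b* were lower in iBECs than in iHBs. *Ptgs2*, the inducible prostaglandin synthase, was at 24.7 RPKM against 367 RPKM in iHBs, 12.4 RPKM against 134 and 198 RPKM in iHPs and 4.27 RPKM against 25.6 and 68.9 RPKM in iBECs (log2 fold change 3.47, limma, adjusted p = 0.00149). The subunit genes *Nfkb1* and *Rela* had estimates of 0.01 and 0. Of 14 tested interferon-response genes *Stat2* fell with genotype (log2 fold change -0.72, adjusted p = 0.0402), and *Isg15*, *Ifit3* and *Rsad2* were lower in iBECs. Among 20 signalling genes of chemokine receptors, *Gng12*, a G-protein subunit gene, rose by 0.91 (adjusted p = 0.0173) and *Grk5*, a receptor kinase gene, by 1.05 (adjusted p = 0.0286) with genotype, and *Rgs2* was higher in iBECs. *Dpp4*, whose peptidase trims chemokines, rose by 1.26 (adjusted p = 0.0498) among 6 tested sheddases and peptidases. *Gpc4*, 1 of 8 proteoglycan genes, fell by 1.21 on the log2 scale (adjusted p = 0.0351). The 2 tested atypical receptor genes, *Ccrl1* and *Ccrl2*, had 0 calls for genotype in limma (0 at an unadjusted p of 0.05). The list medians for genotype were -0.03, -0.27, -0.1, -0.11, -0.15 and 0.1 in this order, beside 0.06 for all genes.

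The 22 chemokine genes with a mean under 1 RPKM were not tested. In 4 of them a library reached 1 RPKM. *Ccl1* was at 4.73 and 2.76 RPKM in the controls of iHB and iHP and at most at 0.179 RPKM in the other libraries. *Xcl1* was at 2.17 and 2.85 RPKM in the same control libraries, at 0.208 RPKM in the iHB library labelled L1L2_Alb and at 0 in the others. Some markers of other cells were high in the same control libraries. The mast cell markers *Cpa3* and *Ms4a2* were at 9.36 and 10.2 RPKM and at 1.25 and 1.48 RPKM there, and at most at 0.48 and 0.223 RPKM in the other libraries (*Cpa3*, log2 fold change -2.07, limma, adjusted p = 0.0555). Of the other 5 mast cell and basophil markers *Tpsb2* was also highest there, at 0.388 and 0.131 RPKM, and the list summed to 13.2 and 14.3 RPKM there and to 2.62 to 4.69 RPKM elsewhere. The others were not highest there. *Mcpt8* was at 1.68 and 2.34 RPKM and reached 4.1 RPKM in L1L2_Alb iBEC replicate 2. *Cma1* was at 0.49 and 0.133 RPKM and reached 2.3 RPKM in the iHB library labelled L1L2_Alb. *Mcpt4* and *Fcer1a* were at 0 in the iHB and iHP controls. *Nkg7*, a marker of cytotoxic lymphocytes, was at 5.96 and 4.53 RPKM there and at 3.04 RPKM in the iHB library labelled L1L2_Alb, and fell with genotype (log2 fold change -1.43, limma, adjusted p = 0.0324), while the other 7 lymphocyte markers were at most at 0.446 RPKM. The part of these cells in the levels of *Ccl1* and *Xcl1* was not tested. *Cxcr6* ranged from 0.344 to 1.23 RPKM, and *Cxcl5* is given above. The other 18 genes were at most at 0.445 RPKM in every library. They were the ligand genes *Ccl11*, *Ccl19*, *Ccl21a*, *Ccl22*, *Ccl26*, *Ccl28*, *Cxcl9* and *Cxcl11* and the receptor genes *Ccr3*, *Ccr4*, *Ccr6*, *Ccr7*, *Ccr8*, *Ccr9*, *Ccr10*, *Cxcr1*, *Cxcr3* and *Cxcr5*, most of them receptors of lymphocytes, dendritic cells or eosinophils. Of these *Ccl26* was at 0 in all 8 libraries.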

How the data were processed

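RNA of 8 hepatoblast cultures was sequenced from TruSeq libraries. Per the submitters' processing notes, Bowtie 0.12.2 and the build mm8 were used, while the counting method and annotation are not given in the sources used here. The authors deposited RPKM values, 1 per gene and library. No label names this unit, and it was read from steps of whole reads in short genes. Reads per library and per gene were recovered from these steps and used for depth and floors only, and floors cover counting error alone. Of 23471 rows, 4 rows of 2 repeated symbols were left out.

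On the log2(RPKM + 1) scale, limma 3.58.1 under R 4.3.3 (trended eBayes) fitted stage plus genotype to each gene that averaged 1 RPKM or more, leaving 4 residual degrees of freedom, and a fit of the 6 conditions tested the difference between stages. Tests were two-sided, with Benjamini-Hochberg adjustment over 13421 genes and a threshold of 0.05. Differences within 1 stage carry no test, since each stage had 1 control library. Every chemokine gene with a mean of at least 1 RPKM is named with values, genes with a single library at 1 RPKM with that library, and the others once, while 1 tested gene is not reported here and stays in counts and sums only. The targeted genes were added as a check of the labels. The members, gene lists and tests were chosen with earlier results of these data known, and gene lists are described by counts alone. Alternatives were another pseudocount, 2 other filters, 2 scalings, eBayes without trend, leaving out libraries or stages, averaging pairs, and an adjusted p under 0.1. The fit was tested on simulated data. Python 3.11.15 with pandas 2.3.3 and matplotlib 3.10.9 made tables and figures. Promoter windows came from RefSeq on GRCm38.p6.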

Additional observations from a re-analysis of the deposited data

Results flagged for a closer look

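For 11 of 36 chemokine genes (30.6%, beside 16% of all genes tested) both L1L2_Alb iHP libraries lay on one side of their control and both L1L2_Alb iBEC libraries on the other. In 10 of them the iHPs were lower and the iBECs higher (27.8%, beside 14.4% of all genes tested), and the median of all genes was itself higher in iBECs (0.22 and 0.26 in the separate libraries) than in iHPs (0.01 and -0.03). Given as the mean iBEC effect minus the mean iHP effect on the log2(RPKM + 1) scale, the differences were 3.88 for *Ccl20*, 2.48 for *Ccl4*, 2.35 for *Pf4*, 2.12 for *Ccl2*, 2.03 for *Ccl3*, 1.22 for *Ccl27a*, 1.2 for *Ccr1*, 1.17 for *Cxcl16*, 1.11 for *Cx3cl1* and 1.01 for *Ccl9*. *Cxcl17* went the other way, with a difference of -1.87, from an effect of 0.43 in iHPs to -1.44 in iBECs. None of the 11 passed the test of a difference between stages, with adjusted p of limma from 0.46 for *Ccl20* to 1 for 7 of them, and each stage has a single control library, so an effect within a stage rests on that library.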

How the results depend on the processing

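Of 36 chemokine genes, 6 passed for genotype, and the count was 2 with no filter on low values (57 tested), 2 with a mean of at least 5 RPKM (27 tested), 1 without iHBs and 0 without iHPs (10 at an unadjusted p of 0.05 in limma, and 0.984% of all genes called), while it was 8 without iBECs, where *Cx3cr1*, *Cxcl10*, *Cxcr4* and *Ppbp* were gained and *Ccl25* and *Cxcl14* lost (1396 of all genes called). Leaving out 1 library of a pair gave 3 to 7, with 3 without L1L2_Alb iHP replicate 1. In iBECs against iHBs 5 passed, and the count was 3 with a mean of at least 5 RPKM, 3 with pairs averaged, 10 without iHPs and 10 at an adjusted p of 0.1, with 4 to 12 when 1 library was left out (12 without L1L2_Alb iHP replicate 2 and 8 without L1L2_Alb iBEC replicate 2). Of all genes 1284 passed for genotype, against 686 with no filter, 793 without L1L2_Alb iBEC replicate 2, 844 without L1L2_Alb iHP replicate 1, 326 without iHBs and 132 without iHPs, and 768 in iBECs against iHBs, against 492 with no filter, 488 without L1L2_Alb iBEC replicate 2 and 1739 without L1L2_Alb iHP replicate 2. Of 553 alternative values of single genes under 14 settings, 486 kept direction and call, 36 lost the call, 10 gained one and 21 changed sign, none of these with a call. Genotype estimates without iHPs became 0.13 for *Ccl2*, 0.08 for *Ccl27a*, 0.39 for *Ccl3*, 0.16 for *Ccl4*, 0.19 for *Ccl5*, 0.19 for *Ccr1*, 0.19 for *Cxcl16*, 0.13 for *Cxcl2* and 0.32 for *Pf4*. Without iBECs they became -0.23 for *Ccl20*, -0.19 for *Ccl9*, -0.11 for *Cx3cl1* and 0.08 for *Cxcl17*, and without iHBs -0.03 for *Cxcl3*. *Ccl9* was at -0.02 with upper-quartile scaling and -0.1 with quantile normalization. Leaving out 1 library moved *Ccl3* between -0.38 and 0.25, *Ccl9* between -0.11 and 0.23, *Ccr1* between -0.28 and 0.02, *Cxcl2* between -1.04 and 0.26, and *Pf4* between -0.68 and 0.03. The cause of these changes was not tested. No paired analysis was possible because control groups have 1 library each and so share fewer than 2 replicate numbers with the L1L2_Alb groups. Averaging pairs leaves no residual degrees of freedom for the difference between stages, so it was not run there. Genes of a few reads, such as *Ccl8* in control iHB (11 reads), are limited by depth.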

Other observations

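Other cells of the cultures also differed between libraries. The 11 mesenchyme markers summed to 3169 to 5539 RPKM in control libraries and to 1990 to 4637 RPKM in libraries labelled L1L2_Alb, with *Vim* of 10 tested genes higher with genotype and a median log2 fold change of -1.02. *Col1a1*, *Col1a2*, *Col3a1*, *Pdgfrb*, *Dcn*, *Lum* and *Acta2* were each lower in 4 of 5 libraries labelled L1L2_Alb, and none of them passed in limma. The endothelium list was at 24.3 RPKM or less in every library.

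Of 8 tested hepatoblast and hepatocyte markers 4 fell with genotype and none rose. The list summed to 12044 to 17232 RPKM in controls and to 10321 to 13621 RPKM in libraries labelled L1L2_Alb. Of 8 biliary markers 2 rose and 2 fell.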
